A study of Mus musculus with 24 samples.

Results

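Zcchc6, Zcchc11 and Dis3l2 encode 2 enzymes that mark RNA for decay with uridine and an exonuclease that reads the mark. These 3 genes were chosen with earlier results of these data known and were taken by gene symbol from the 23235 genes of the deposited table. Their values were followed across all 24 libraries. The libraries came from oocytes and zygotes of C57BL/6 mice at postnatal day 21, and fell into 3 genotypes. These were WT (wild type), Cnot6l-/- and 1 that the labels call Btg4-/-. Each genotype was sampled as oocytes at the germinal vesicle stage (GV), 48 h after PMSG (a hormone that stimulates follicle growth), as oocytes in the first meiotic division (MI, 8 h of culture), as eggs in the second (MII, 16 h of culture) and as zygotes (24 h after hCG, the hormone that triggers ovulation). With 2 libraries in each of the 12 groups, the p-values below measure only the spread between these libraries, since the labels do not say whether they came from separate animals. The labels do not describe the knockout alleles. The culture protocol mentions U0126, an inhibitor of the ERK pathway, but ties it to no sample. The labels also differ on the cells behind a library: the extraction protocol gives 100 oocytes and the description of the series gives 2.

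ZCCHC6 (TUT7) and ZCCHC11 (TUT4) are terminal uridylyltransferases, which add uridines to the 3′ ends of RNA. They act on mRNA whose poly(A) tail has become short and, with LIN28A, on the precursor of the let-7 microRNA. DIS3L2 is a cytoplasmic exonuclease that degrades RNA from the 3′ end, prefers ends that carry uridines and works without the exosome. The step before uridylation, the shortening of the poly(A) tail, is carried out by the CCR4-NOT complex, of which CNOT6L is a catalytic subunit and to which the adaptor BTG4 binds. Oocytes stop transcription before they resume meiosis, so the mRNA present at GV is stored, translated and cleared without replacement until the embryo's genome becomes active.

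Values are FPKM, which are per length of transcript, so levels of different genes can be set side by side. The labels do not say how FPKM were made comparable between libraries, and the sum over all genes fell to 12.7% of its GV value in WT zygotes. Differences are therefore given on FPKM as deposited and, where it matters, after a median-ratio scaling, which sets each library level over the 3677 genes that exceed 1 FPKM throughout. Words such as fell, kept and held refer to FPKM and not to amounts of mRNA. The length of poly(A) tails was not measured, and its part in these values was not tested. Fewer molecules per cell and fewer cells of a type cannot be told apart in such pooled samples. Cnot6l was at 3.4 to 7.26 FPKM in the Cnot6l-/- libraries and at 7.07 to 73.92 in WT, while Btg4 was at 764.77 to 2515.06 in the group labelled Btg4-/- and at 553.86 to 2489.88 in WT. The Btg4 transcript thus gives no check of that label. All 10 oocyte markers were above 0 in all 24 libraries (Zp3, of the egg coat, at 13.33 to 2717.03 FPKM). The 10 cumulus and granulosa cell markers summed to 1.48 to 27.78 FPKM and were highest at GV within each genotype. Haemoglobin genes Hbb-b1 and Hba-a1 and the sperm gene Tnp1 were listed at 0 in every library, and the 8 sperm markers, several of which oocytes also express, summed to 49.81 to 105.37 FPKM at GV and to 3.82 to 9.85 in zygotes. The 5 blood markers, which include the haemoglobin genes, summed to 0.29 to 2.83 FPKM. Among them Laptm5 was above 0 in all libraries (0.29 to 1.54 FPKM), and Cd52 reached 2.38 FPKM and was at 0 in 21 libraries. The part of other cells in the results below was not tested.

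The 3′ untranslated regions of the 3 genes, in the gencode vM1 annotation on mm9, were searched for letters of the kind that regulators of stored maternal mRNA bind, such as cytoplasmic polyadenylation element binding protein. The motifs searched on the sense strand were TTTTAT and TTTTAAT (cytoplasmic polyadenylation elements), TGTANATA (Pumilio), TATTTAT (AU-rich) and the polyadenylation signals AATAAA and ATTAAA. Sites are shown to let a reader compare the genes, with the motif in capitals. Dis3l2 (chromosome 1, 88600379 to 88946672, plus strand) holds 3 copies of TTTTAT and 1 of TTTTAAT within 300 bases of its end, and the sequences shown around the 3 TTTTAT copies overlap.
Dis3l2, chr1:88946391-88946413, plus strand: aaggggatTTTTAATttggtttt
Dis3l2, chr1:88946425-88946446, plus strand: gggtttgtTTTTATttttattt
Dis3l2, chr1:88946431-88946452, plus strand: gtttttatTTTTATttttcctt
Dis3l2, chr1:88946443-88946464, plus strand: atttttccTTTTATtttacttt
Zcchc6 (chromosome 13, 59873240 to 59924508, minus strand) holds 1 TTTTAT and 1 TATTTAT within the last 300 bases, and 3 copies of TTTTAAT and 1 Pumilio match further upstream.
Zcchc6, chr13:59873447-59873468, minus strand: tttttactTTTTATgatacaca
Zcchc6, chr13:59873263-59873285, minus strand: tgccggttTATTTATcattttga
Zcchc6, chr13:59873698-59873721, minus strand: tatactgcTGTACATAgggtctac
Zcchc11 (chromosome 4, 108132031 to 108232020, plus strand) has its 2 copies of TTTTAT and its Pumilio match upstream of the last 300 bases.
Zcchc11, chr4:108231632-108231653, plus strand: ttcatctaTTTTATtaccctat
Zcchc11, chr4:108231567-108231590, plus strand: gtattattTGTATATAaatatgaa
Of 15281 genes with a 3′ untranslated region of at least 300 bases, 28.4% hold TTTTAT in the last 300 bases, 10.4% TTTTAAT, 9.58% TGTANATA, 9.86% TATTTAT, 68.0% AATAAA and 28.7% ATTAAA. In that window TTTTAT was found in Zcchc6 and Dis3l2 and not in Zcchc11, all 3 genes have an AATAAA, and Zcchc6 has an ATTAAA as well. Over the whole untranslated region each of the 3 holds at least 1 TTTTAT, as do 41.6% of the 4067 genes whose region is between 503 and 1028 bases long, the range of the 3 genes. In those genes TTTTAAT was found in 17% and TGTANATA in 14%. A match is a run of letters and not a measured binding site.

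Zcchc6 was more abundant than Zcchc11 in every library. In WT its level was 2.02 and 1.27 FPKM at GV, 1.01 and 0.71 at MI, 0.57 and 0.82 in MII eggs, and 0.87 and 0.36 in zygotes. Both WT libraries of each later stage lay below both at GV, and the MI, MII and zygote libraries overlapped. Overlap of libraries is a description here and below. The share of all genes without overlap was counted only in a later comparison, over MI, MII and zygote together. In Cnot6l-/- it was 1.16 and 0.98 FPKM at GV, 1.14 and 1.09 at MI, 0.88 and 0.67 in MII eggs, and 0.42 and 0.47 in zygotes. Here the MI libraries lay within the GV range, and the MII and zygote libraries below it. In the group labelled Btg4-/- it was 1.56 and 1.8 FPKM at GV, 1.73 and 2.09 at MI, 1.15 and 0.74 in MII eggs, and 1.22 and 0.71 in zygotes. MI again overlapped GV, and both later stages lay below GV. Ordered by mean, the 12 groups ran from 1.91 ± 0.25 FPKM (SD, n = 2) at MI in the group labelled Btg4-/- to 0.445 ± 0.035 in Cnot6l-/- zygotes, and 10 of 11 neighbouring groups overlapped. The one gap in that order lay between WT at GV (mean 1.65 FPKM) and Cnot6l-/- at MI (mean 1.11). On the opposite strand the gene Etohd2 overlaps the 3′ end of Zcchc6, and it was at 0.14 FPKM or less in all libraries.

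Dis3l2 had MI libraries that overlapped those at GV in WT, and MII libraries below those at GV in all genotypes. In WT it was at 2.22 and 1.18 FPKM at GV, 1.61 and 1.28 at MI, 0.84 and 0.66 in MII eggs, and 0.26 and 0.49 in zygotes. The MI libraries lay within the range of GV, and those of MII and zygotes lay below it. In Cnot6l-/- it was 1.24 and 1.84 FPKM at GV, 1.99 and 2.01 at MI, 0.70 and 0.62 in MII eggs, and 0.32 and 0.67 in zygotes. Both MI libraries of this genotype lay above both of its GV libraries and above both WT libraries at MI. The share of all genes that do so was not counted. Summed FPKM at MI in Cnot6l-/- was 62.5% of its GV value and 1.89 times that of WT. After median-ratio scaling the log2 difference of Dis3l2 from WT at MI was -0.28. In the group labelled Btg4-/- Dis3l2 was at 2.47 and 1.46 FPKM at GV, 1.46 and 2.08 at MI, 0.67 and 0.86 in MII eggs, and 0.22 and 0.60 in zygotes. By mean, all 6 GV and MI groups (1.45 to 2.0 FPKM) stood above all 6 MII and zygote groups (0.375 to 0.765), with the only gap between neighbours at that border. The genotypes overlapped at GV, MII and zygote.

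Zcchc11 was listed at 0.01 to 0.14 FPKM, close to the table's rounding step of 0.01, and missed the 1 FPKM in a group mean required for the test across genes. In WT it was 0.08 and 0.04 FPKM at GV, 0.03 in both MI libraries, 0.01 and 0.02 at MII, and 0.01 in both zygote libraries. In Cnot6l-/- it was 0.03 and 0.05 at GV, 0.02 and 0.08 at MI, 0.02 in both MII libraries, and 0.02 and 0.01 in zygotes. In the group labelled Btg4-/- it was 0.13 and 0.08 at GV, 0.04 and 0.14 at MI, 0.05 in both MII libraries and 0.03 in both zygote libraries. In each genotype the MII and zygote libraries lay below both GV libraries, and at MI, MII and zygote every library labelled Btg4-/- lay above both WT libraries of its stage. With no filter on low values 1 of its 15 stage comparisons passed, zygotes against GV in the group labelled Btg4-/- (-0.10 ± 0.036, limma, adjusted p = 0.0247). In the fit with the filter, 83.4% of all tested genes were called lower in this comparison. The share without the filter was not counted. Of the summed FPKM of Zcchc6 and Zcchc11, Zcchc11 made up 1.14% (a WT zygote library) to 7.69% (a GV library labelled Btg4-/-). By mean, 10 of 11 neighbouring groups overlapped, and the gap lay between WT at MI (0.03 FPKM) and Cnot6l-/- at MII (0.02). Read depth is unknown from FPKM, so the counting error of values this low cannot be given.

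**Figure D1:**
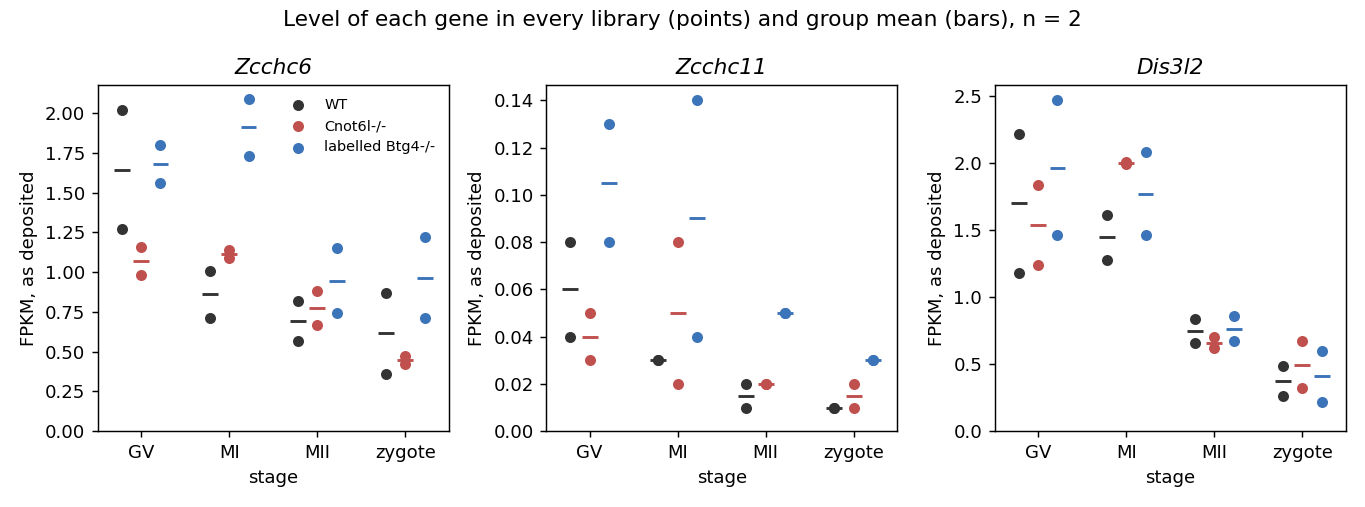
Level of Zcchc6, Zcchc11 and Dis3l2 (FPKM as deposited, vertical axes of different range) at each stage, with 1 point per library and a bar at the mean of the 2 libraries of a group. Zcchc6 in WT is lower in both MI libraries than in both at GV, every MII library of Dis3l2 lies below every MI library, and Zcchc11 stays at or below 0.14 FPKM.

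In WT, Zcchc6 was called lower than at GV from MI on, and Dis3l2 from MII on. Of its mean GV level, Zcchc6 kept 52.3% by MI, 42.2% by MII and 37.4% in zygotes. Dis3l2 kept 85.0%, 44.1% and 22.1%, and summed FPKM over all genes 32.0%, 19.9% and 12.7%. On log2(FPKM + 1), a scale that understates changes of genes as low as these, the change of Zcchc6 from GV to MI was -0.50 ± 0.19 (SE; limma with Benjamini-Hochberg adjustment over 10884 genes, adjusted p = 0.0304). It was -0.63 ± 0.19 to MII (adjusted p = 0.00622) and -0.72 ± 0.19 to zygotes (adjusted p = 0.00225). For Dis3l2 it was -0.12 ± 0.22 at MI (adjusted p = 0.647), -0.60 ± 0.22 at MII (adjusted p = 0.0189) and -0.95 ± 0.22 in zygotes (adjusted p = 0.000712). Thus 1 of the 2 tested genes was called lower at MI, where 65.1% of all tested genes were, and both were called lower at MII (83.4% of all genes) and in zygotes (91.1%). The median change over all genes was -0.95 at MI, -1.37 at MII and -1.65 in zygotes, larger than that of either gene at each stage. On this scale neither gene could have reached the zygote median even at 0 FPKM, and the MII median only with near-total loss. Both started from 1.18 to 2.22 FPKM at GV, so the MII and zygote medians do not set these genes apart. Step by step, neither gene was called between MI and MII (32.6% of all genes lower) or between MII and zygote (3.22%).

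The WT calls rest on few libraries. Without the first WT GV library, which was the higher of the pair for both genes, Zcchc6 was at -0.29 (adjusted p = 0.29) for MI and -0.43 (adjusted p = 0.095) for MII against GV, and Dis3l2 at -0.32 (adjusted p = 0.25) for MII against GV. Zcchc6 also lost its call at MI without the MI library of column 3 (-0.38, adjusted p = 0.19), at MII without the first MII library (-0.52, adjusted p = 0.056) and in zygotes without the second zygote library (-0.49, adjusted p = 0.054). Dis3l2 lost its call at MII without the second MII library (-0.53, adjusted p = 0.094). After median-ratio scaling, both genes lay higher than at GV relative to the levelled genes. Zcchc6 was then called higher at MII (0.36 ± 0.14, adjusted p = 0.0395) and in zygotes (0.51 ± 0.14, adjusted p = 0.00792), against medians over all genes of -0.37 and -0.24 and shares called higher of 14.9% and 12.7%. Dis3l2 was at 0.59 ± 0.25 at MI (adjusted p = 0.0693) and passed in no stage comparison after scaling.

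In Cnot6l-/- oocytes neither gene was called between GV and MI, and Dis3l2 fell between MI and MII. Zcchc6 kept 104.2% of its GV mean at MI, 72.4% at MII and 41.6% in zygotes, and Dis3l2 kept 129.9%, 42.9% and 32.1%. Summed FPKM over all genes kept 62.5%, 39.4% and 22.6%. The change from GV to MI was 0.03 ± 0.19 for Zcchc6 (limma, adjusted p = 0.927) and 0.25 ± 0.22 for Dis3l2 (adjusted p = 0.422), and 15% of all genes were called lower and 8.37% higher. From MI to MII Dis3l2 was at -0.85 ± 0.22 (adjusted p = 0.0034) and Zcchc6 at -0.26 ± 0.19 (adjusted p = 0.281), with 54.3% of all genes called lower and a median of -0.74. After median-ratio scaling Dis3l2 was at -0.39 for this step (limma, adjusted p = 0.25) and Zcchc6 at 0.11 (adjusted p = 0.61). Against GV, 1 of 2 was called lower at MII (Dis3l2, -0.60 ± 0.22, adjusted p = 0.026; 59.9% of all genes) and 2 of 2 in zygotes (Zcchc6 -0.52 ± 0.19, adjusted p = 0.0205, and Dis3l2 -0.76 ± 0.22, adjusted p = 0.00458; 80.3% of all genes). Between MII and zygote none was called (28.7% of all genes lower). Dis3l2 at MII against GV lost its call without the second GV library (-0.43, adjusted p = 0.19), the first MII library (-0.64, adjusted p = 0.059) or the second (-0.57, adjusted p = 0.1), and in zygotes without the second GV library (-0.59, adjusted p = 0.055) or the first zygote library (-0.59, adjusted p = 0.06). Zcchc6 in zygotes lost it without the first GV library (-0.45, adjusted p = 0.095), the first zygote library (-0.49, adjusted p = 0.08) or the second (-0.54, adjusted p = 0.051).

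In the group labelled Btg4-/- neither gene was called between GV and MI, and both fell between MI and MII. Zcchc6 kept 113.7% of its GV mean at MI, 56.2% at MII and 57.4% in zygotes, and Dis3l2 kept 90.1%, 38.9% and 20.9%. Summed FPKM over all genes kept 78.0%, 34.7% and 30.2%. At MI none was called (1.26% of all genes lower, 0.404% higher), with Zcchc6 at 0.12 ± 0.19 (adjusted p = 0.863) and Dis3l2 at -0.09 ± 0.22 (adjusted p = 0.922). From MI to MII both were called lower, where 69.3% of all genes were: Zcchc6 by -0.59 ± 0.19 (limma, adjusted p = 0.0122) and Dis3l2 by -0.64 ± 0.22 (adjusted p = 0.016). Both were also called lower against GV at MII (75.3% of all genes), at -0.47 ± 0.19 (adjusted p = 0.0355) and -0.73 ± 0.22 (adjusted p = 0.00709), and in zygotes (83.4%), at -0.46 ± 0.19 (adjusted p = 0.0352) and -1.06 ± 0.22 (adjusted p = 0.000319). Between MII and zygote none was called (1.07% of all genes lower). For MII against MI the calls were lost without the MI library of column 3 (Zcchc6 -0.50, adjusted p = 0.085, and Dis3l2 -0.48, adjusted p = 0.14), for Zcchc6 without the second MII library (-0.43, adjusted p = 0.13) and for Dis3l2 without the first (-0.57, adjusted p = 0.074). Against GV, Zcchc6 lost its call without the first GV library (-0.53 at MII and -0.52 in zygotes, adjusted p = 0.056 and 0.053), the second GV library (-0.40 and -0.39, adjusted p = 0.14 for each), the second MII library (-0.32, adjusted p = 0.26) or the second zygote library (-0.27, adjusted p = 0.3). Dis3l2 lost its call at MII without the first GV library (-0.48, adjusted p = 0.1) and kept that in zygotes whichever of the 4 libraries was left out.

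**Figure D2:**
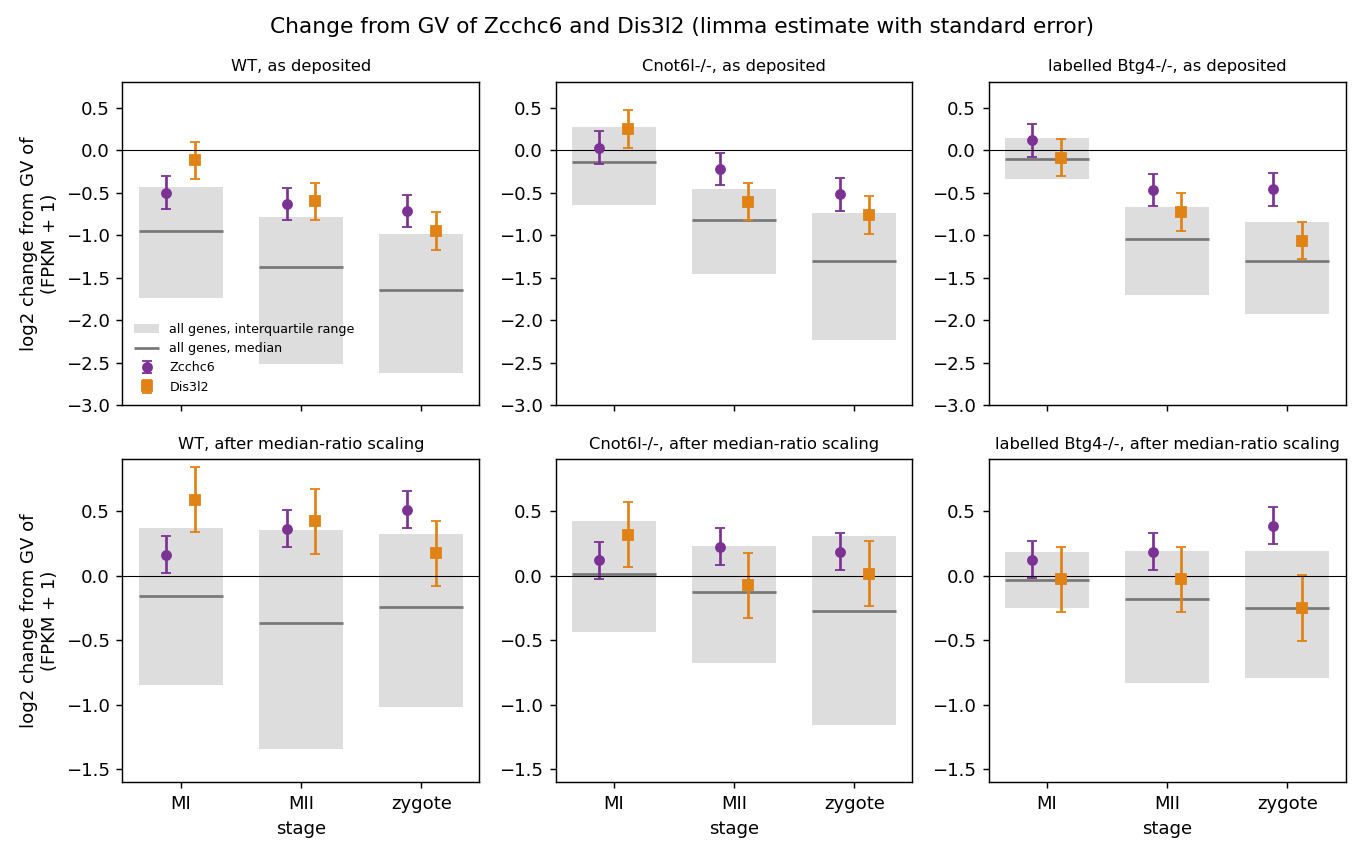
Change from GV of Zcchc6 and Dis3l2 at MI, MII and zygote (log2 of FPKM + 1, limma estimate with its standard error) in each genotype, with the median and interquartile range of all tested genes in grey; the upper row is on FPKM as deposited and the lower row after median-ratio scaling, with vertical axes of different range. Both genes lie above the grey median in every upper panel, on a scale that limits the fall of genes this low. After scaling most of their changes lie at or above 0.

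Set against WT at the same stage, Zcchc6 was higher at MI in the group labelled Btg4-/-, and no other difference of the members passed on FPKM as deposited. At MI the libraries labelled Btg4-/- had 1.73 and 2.09 FPKM of Zcchc6 and WT had 1.01 and 0.71, a ratio of means of 2.22, while summed FPKM differed 2.37-fold. The log2 difference was 0.65 ± 0.19 (limma, adjusted p = 0.00665), against a median over all genes of 0.99, and 68.7% of all genes were called higher. Without the WT MI library of column 3 it was 0.53 (adjusted p = 0.071), without the MI library labelled Btg4-/- of column 3 it was 0.56 (adjusted p = 0.056), and median-ratio scaling brought it to -0.03 (adjusted p = 0.903). Dis3l2 differed there by 0.17 ± 0.22 (adjusted p = 0.485). In Cnot6l-/- at MI the differences from WT were 0.19 ± 0.19 for Zcchc6 (adjusted p = 0.411) and 0.30 ± 0.22 for Dis3l2 (adjusted p = 0.255), where 60.3% of all genes were called higher and the median was 0.87. For both genes the 2 MI libraries of Cnot6l-/- lay above both of WT, where summed FPKM was 1.89 times that of WT. The share of all genes that do so was not counted.

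At the other stages no difference from WT passed as deposited. At GV 0 of 2 were called in Cnot6l-/- (6.06% of all genes higher, 3.02% lower) and 0 of 2 in the group labelled Btg4-/- (6.1% higher, 1.33% lower). Zcchc6 at GV was 0.65 times the WT level in Cnot6l-/-, and both of those libraries lay below both of WT, yet the log2 difference of -0.34 ± 0.19 did not pass (adjusted p = 0.393). At MII 0 of 2 were called, where Cnot6l-/- had 44.3% of all genes called higher and the group labelled Btg4-/- had 28.3%. In zygotes 0 of 2 were called, where these shares were 8% and 21.5%, with Zcchc6 at 0.29 ± 0.19 in the group labelled Btg4-/- (adjusted p = 0.323). Between the 2 knockout groups none was called at any stage, with 12.4%, 6.46%, 1.77% and 12.8% of all genes called lower in Cnot6l-/- at GV, MI, MII and zygote and 5.85%, 3.59%, 11% and 1.71% higher. After median-ratio scaling Zcchc6 in Cnot6l-/- zygotes was called lower than in WT (-0.53 ± 0.14, adjusted p = 0.0189) and than in the group labelled Btg4-/- (-0.42 ± 0.14, adjusted p = 0.0444), where 7.91% and 17% of all genes were called lower.

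The change from GV was not shown to differ between genotypes for either gene. The largest difference was that of Zcchc6 at MI: its change from GV was 0.62 ± 0.27 higher on the log2 scale in the group labelled Btg4-/- than in WT (adjusted p = 0.0735) and 0.53 ± 0.27 higher in Cnot6l-/- (adjusted p = 0.122). Without the second WT GV library these were 0.82 (adjusted p = 0.025) and 0.74 (adjusted p = 0.041), and after scaling -0.04 and -0.04. For Dis3l2 the differences at MI were 0.03 ± 0.31 (adjusted p = 0.941) and 0.37 ± 0.31 (adjusted p = 0.349). At MI 45.4% of all genes passed this test with a higher value in the group labelled Btg4-/- and 44.4% in Cnot6l-/-. At MII, where these shares were 13.3% and 24.1%, and in zygotes, where they were 10.4% and 3.09%, 0 of 2 members passed in either knockout group. Before adjustment, 1 of these 12 tests passed, that of Zcchc6 at MI in the group labelled Btg4-/- (limma, unadjusted p = 0.0366).

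The comparison over MI, MII and zygote together, with genotype labels exchanged within stages, was added after the values were seen and includes Zcchc11. It treats libraries of different stages as independent, while deviations of same-numbered libraries correlated from -0.31 to 0.71 over 39 pairs of groups. The effect of this on the permutation p-values, here and for the ratios below, was not tested. Zcchc11 was higher by 0.05 on the log2(FPKM + 1) scale in the group labelled Btg4-/- than in WT, in 6 of 6 libraries (exact two-sided permutation test, p = 0.0093, the smallest that 216 relabellings can give; adjusted p = 0.0556 over 6 tests). It therefore did not pass after adjustment, and after scaling it was 0.03 (exact permutation p = 0.102). All 6 libraries likewise lay above both of WT at their stage for 41.5% of the tested genes, and for 15.6% of the 1327 genes that, like Zcchc11, were below the filter and above 0 in every library. Summed FPKM was 2.37, 1.695 and 2.32 times that of WT at MI, MII and zygote. Zcchc6 was higher by 0.38 in the same comparison, and 4 of 6 libraries exceeded both of WT at their stage (exact permutation p = 0.037, adjusted p = 0.111), and Dis3l2 by 0.07 with 3 of 6 (exact permutation p = 0.472, adjusted p = 0.567). In Cnot6l-/- the 3 differences were 0.04 for Zcchc6, 0.01 for Zcchc11 and 0.11 for Dis3l2 (exact permutation p from 0.213 to 0.704). Scaling turned the Zcchc6 difference in Cnot6l-/- to -0.38 (exact permutation p = 0.0093, adjusted p = 0.0556).

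The plain ratio of 2 genes' FPKM within a library does not depend on how libraries were scaled, and a ratio with 1 FPKM added to each gene does. The plain ratio of Zcchc6 to Dis3l2 was 0.910 and 1.08 in WT at GV, 0.627 and 0.555 at MI, 0.679 and 1.24 in MII eggs, and 3.35 and 0.735 in zygotes. In Cnot6l-/- it was 0.935 and 0.533, 0.573 and 0.542, 1.26 and 1.08, and 1.31 and 0.701 at the same stages. In the group labelled Btg4-/- it was 0.632 and 1.23, 1.19 and 1.005, 1.72 and 0.860, and 5.55 and 1.18. The MI libraries of WT and Cnot6l-/- were thus all below 0.7 and those labelled Btg4-/- at or above 1, while the zygote libraries of a group lay far apart. Over MI, MII and zygote the log2 of the plain ratio was 0.67 higher in the group labelled Btg4-/- than in WT, with 4 of 6 libraries above both of WT (exact two-sided permutation p = 0.232, adjusted p = 0.463 over 6 tests). With 1 FPKM added it was 0.31 higher (exact permutation p = 0.13, adjusted p = 0.389). In Cnot6l-/- the plain difference was -0.15 (exact permutation p = 0.704, adjusted p = 0.704). The tests of plain ratios were added after the values were seen. For Zcchc11, at 0.14 FPKM or less, a ratio with 1 FPKM added mostly follows the other gene, so only plain ratios are given here, and these move in large steps because the table is rounded to 0.01. The log2 ratio of Zcchc6 to Zcchc11 in the group labelled Btg4-/- differed from WT by -0.80, with 4 of 6 libraries below both of WT (exact permutation p = 0.0833, adjusted p = 0.25). The ratio of Zcchc11 to Dis3l2 was 1.46 higher there, with 6 of 6 libraries above both of WT (exact permutation p = 0.0093, adjusted p = 0.0556). In Cnot6l-/- these differences were -0.39 and 0.25 (exact permutation p = 0.389 and 0.63). None of the 6 ratio tests passed after adjustment, plain or with 1 FPKM added.

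**Figure D3:**
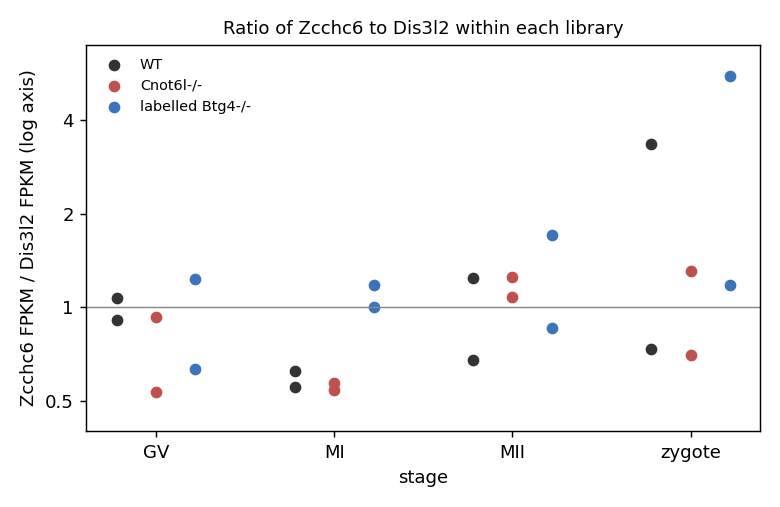
Ratio of Zcchc6 to Dis3l2 FPKM within each library (vertical log axis) by stage, with 1 point per library. At MI the libraries labelled Btg4-/- lie at 1.005 and 1.19 and the WT and Cnot6l-/- libraries between 0.542 and 0.627, and the zygote libraries labelled Btg4-/- spread from 1.18 to 5.55.

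Among relatives of DIS3L2, the transcripts of the exosome nucleases Dis3 and Dis3l fell in WT to a few percent of their GV level by MII. These 2 genes belong to the list of tail-binding and decay factors and were singled out after their values were seen. In WT, Dis3l was at 30.04 and 23.84 FPKM at GV and at 0.66 and 0.48 at MII, so that 2.1% of its mean remained, and Dis3 went from 1.52 and 0.94 to 0.05 and 0.04 (3.7%), where Dis3l2 kept 44.1%. The log2 change was -4.15 ± 0.25 for Dis3l (limma, adjusted p = 1.91e-10) and -1.08 ± 0.15 for Dis3 (adjusted p = 5.17e-06). At GV, Dis3l exceeded Dis3l2 in both WT libraries, and at MII Dis3l2 was the most abundant of the 3 in both. At MI the knockout groups held more of the relatives than WT did. Dis3l was 5.09 times the WT mean in Cnot6l-/- and 6.24 times in the group labelled Btg4-/- (limma, adjusted p = 1.82e-06 and 3.78e-07). Dis3 was 19.4 and 23.9 times the WT mean (adjusted p = 5.6e-06 and 9.61e-07), and Dis3l2 1.38 and 1.22 times. The folds of Dis3 rest on WT values of 0.1 and 0.04 FPKM at MI, near the table's rounding step, so their size is uncertain. At MI Dis3 was at 1.27 and 1.44 FPKM in Cnot6l-/- and at 1.58 and 1.76 in the group labelled Btg4-/-. At MI 60.3% and 68.7% of all genes were called higher than WT in these groups. Dis3l did not stand above WT throughout: at GV it was at 8.15 and 8.61 FPKM in Cnot6l-/-, below both WT libraries (-1.57 ± 0.25, adjusted p = 0.000364, and -1.41 after scaling, adjusted p = 0.00063). In zygotes it was 0.91 times the WT mean in Cnot6l-/- (adjusted p = 0.981) and 6.2 times in the group labelled Btg4-/- (adjusted p = 0.000268). After scaling Dis3l kept the calls at MII and MI (-2.79 for WT at MII against GV, 1.24 and 1.26 for the knockout groups at MI), and Dis3 was below the filter. Whether Dis3l2 differs from its relatives in these changes was not tested.

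Most other tail-adding enzymes were more abundant than Zcchc6 in WT at GV. Of 12 nucleotidyltransferases in a list of genes that add tails to RNA, 9 were tested, and in WT 7 of 9 were called lower at MII than at GV and none higher, where 83.4% of all genes were called lower. Their median log2 change was -2.10, beside -1.37 over all genes. Fam46c, a poly(A) polymerase of the FAM46 family, was at 310.95 and 318.88 FPKM at GV and 19.35 and 22.13 at MII (-3.86 ± 0.34, limma, adjusted p = 1.84e-08), and Fam46b of the same family changed by -3.17 ± 0.39 (adjusted p = 1.17e-06). The 2 genes that did not pass were Papd4, the cytoplasmic poly(A) polymerase GLD2, at 28.50 and 18.53 FPKM at GV and 16.66 and 11.89 at MII (-0.67 ± 0.43, adjusted p = 0.148), and Papd7 (-0.68 ± 0.32, adjusted p = 0.0624). After scaling the split became 2 of 9 higher (Papd7 and Papd4) and 3 of 9 lower, beside 14.9% and 43.2% of all genes. At MI 6 of 9 were called higher than WT in Cnot6l-/- and 7 of 9 in the group labelled Btg4-/-, where 60.3% and 68.7% of all genes were. They were led by Fam46b (2.82 ± 0.39 and 2.31 ± 0.39) and Fam46c (2.54 ± 0.34 and 3.41 ± 0.34), and the medians were 1.17 and 1.63, beside 0.87 and 0.99 over all genes. Papd4 and Papd7 were the lowest 2 in both comparisons and passed in neither. After scaling, these counts were 3 higher and 3 lower in Cnot6l-/- (35.8% and 11% of all genes) and 2 higher and 2 lower in the group labelled Btg4-/- (32.5% and 9.82%).

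**Figure D4:**
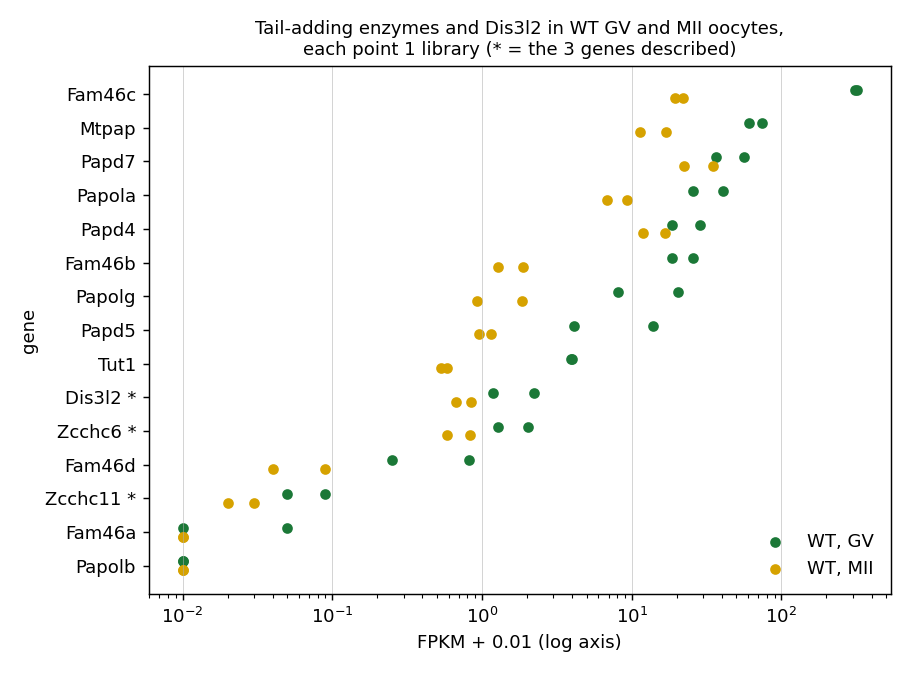
Levels of the 12 listed tail-adding enzymes and of Zcchc6, Zcchc11 and Dis3l2 (starred) in the 2 WT GV and the 2 WT MII libraries (FPKM + 0.01, horizontal log axis), ordered by mean at GV. Fam46c drops from above 300 FPKM to 19.35 and 22.13, whereas Papd4 and Papd7 keep 60.7% and 61.9% of their GV mean. Zcchc11 lies near the bottom of the axis.

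Most factors that bind or degrade short or uridylated tails were called lower in WT eggs as well. Of 17 listed genes, which include the LSM1 to LSM7 ring that binds oligouridine ends, the ring's partners PATL1 and PATL2, and LIN28A, 16 were tested, and 15 of 16 were called lower in WT at MII than at GV, where 83.4% of all genes were (median -2.77, beside -1.37 over all genes). Lsm3 and Lsm6, 2 subunits of the ring, changed most (-5.40 ± 0.53 and -4.47 ± 0.37, limma, adjusted p = 7.98e-08 and 9.16e-09), while AA960436, the table's symbol for the U6 exonuclease gene Usb1, changed by -0.48 ± 0.20 (adjusted p = 0.0328) and Patl1 by -0.30 ± 0.31 (adjusted p = 0.36). After scaling the split became 5 of 16 higher and 8 of 16 lower, beside 14.9% and 43.2% of all genes. At MI 8 of 16 were called higher than WT in Cnot6l-/- (median 0.90) and 9 of 16 in the group labelled Btg4-/- (median 1.08), beside 60.3% and 68.7% of all genes with medians of 0.87 and 0.99. Trim71, a ubiquitin ligase and let-7 target, and Lsm3 led both comparisons (Trim71 2.93 ± 0.31 and 2.94 ± 0.31, Lsm3 2.86 ± 0.53 and 3.21 ± 0.53), with Lin28a at -0.47 ± 0.23 in Cnot6l-/- (adjusted p = 0.0825). At MII 10 of 16 were called higher in Cnot6l-/- than in WT (44.3% of all genes). Lsm5 was at 3.08 ± 0.59 and Lsm4 at 2.79 ± 0.48. After scaling 9 of 16 were called higher (34.3% of all genes) and 2 of 16 lower. In the group labelled Btg4-/- 5 of 16 were called higher at MII (28.3% of all genes), and 5 higher and 1 lower after scaling. Of the nucleotidyltransferases, 3 of 9 were called higher at MII in Cnot6l-/- and 4 of 9 in the group labelled Btg4-/-. The 2 knockout comparisons share the WT libraries.

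As a description over the 12 group means, the genes whose pattern was most like that of each member had high correlations in a table where most genes do. Among 7058 genes that reach 5 FPKM in the mean of some group, those nearest to Zcchc6 were Ets2 (Pearson r = 0.976), Slc23a3, Slc7a6os, Srek1 and Tmem229b, against a median r of 0.809 over all of them. Nearest to Dis3l2 were Sap130 (r = 0.988), Dnajc1, Klhl8, Alas1 and Anxa7 (median 0.820), and nearest to Zcchc11 were Krt73 (r = 0.976), Zdhhc8, C230081A13Rik, Ppfia1 and Sergef (median 0.758). After scaling, 2 of the 5 remained for Zcchc6 (Srek1 and Ets2), 1 for Dis3l2 (Dnajc1) and 0 for Zcchc11. Between the members r was 0.924 for Zcchc6 and Zcchc11, 0.786 for Zcchc6 and Dis3l2 and 0.759 for Zcchc11 and Dis3l2 as deposited, and 0.264, 0.179 and -0.036 after scaling. The groups share the fall of summed FPKM, and the cause of these correlations was not tested.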

How the data were processed

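Total RNA from 24 samples was made into libraries with Smart-Seq2 and a Tn5 kit, per the labels' protocols. The submitters' processing notes name CASAVA 1.8, TopHat2 2.0.11, Bowtie2 2.1.0, Cufflinks 2.2.1 and mm9. The authors deposited FPKM with 2 decimals, and the step that made libraries comparable is not stated there. The table of all libraries was used and the tables of single libraries were left out. Its MI columns are numbered 2 and 3 where the titles have 1 and 2, so they were assigned to groups only. Read depth is unknown, and precision rests on the spread between 2 libraries a group.

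The 10884 genes whose mean reached 1 FPKM in any group were fitted with limma 3.58.1 in R 4.3.3 on log2(FPKM + 1), with 12 group means, a trend and 12 residual degrees of freedom. Each of 33 contrasts was tested two-sided with the moderated statistic, p-values were adjusted over all tested genes (Benjamini-Hochberg), and an adjusted p under 0.05 was called. Zcchc11 is below this filter. Ratios and levels over MI, MII and zygote were compared by exact permutation within stages, ratios both plain and with 1 FPKM added to each gene. The members and lists were chosen with earlier results of these data known. Genes named are the members, Cnot6l and Btg4, genes among the 2 highest and 2 lowest changes of each list in a comparison described, and the 5 most correlated genes of each member. Dis3 and Dis3l were added to these after their values were seen. For the list of tail-binding and decay factors, the lowest changes against WT at MI and MII were not all named. Settings tried beside these were median-ratio scaling, a pseudocount of 0.1, no filter, a fit to the compared libraries alone, a block for library number, and leaving out each library, which assumes that the remaining one varies as the other groups do. Motifs were searched in the longest 3′ untranslated region of each gene. The fit and the permutation test were tested on simulated data. Tables and figures were made in Python 3.11.15 (pandas 2.3.3, numpy 2.4.6, matplotlib 3.10.9).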

Additional observations from a re-analysis of the deposited data

How the results depend on the processing

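With 2 libraries a group and FPKM without depth, small changes of genes at about 1 FPKM cannot be resolved, and Zcchc11 is near the rounding step. Of the 16 member values called as deposited, 13 kept their call with a pseudocount of 0.1, 13 without the filter, 12 with only the libraries compared, 16 with the replicate block and none after median-ratio scaling, which also reversed 12 of them. The library numbers were not taken as pairs: deviations of same-numbered libraries correlated from -0.31 to 0.71 over 39 pairs of groups, with 28 over 0.1. The replicate block left 15 lower calls over the 15 stage comparisons, as without it. These counts of lower stage calls were 12 with a pseudocount of 0.1 or only the libraries compared, 13 without the filter, 0 after scaling and 12 to 15 with a library left out; higher stage calls were 2 after scaling and 0 otherwise. Between genotypes, lower calls were 2 after scaling and 1 with only the libraries compared (Zcchc6 at MI, Cnot6l-/- against the group labelled Btg4-/-, -0.46, adjusted p = 0.029), and higher calls were 0 after scaling and 0 to 1 with a library left out. Differences in the change from GV gave 0 to 2 higher calls with a library left out. With only the libraries compared, Dis3l2 also passed in WT from MI to MII (-0.48, adjusted p = 0.036). Zcchc6 lost its WT call at MI with a pseudocount of 0.1 (-0.85, adjusted p = 0.058), without the filter (adjusted p = 0.052) and with only the libraries compared (adjusted p = 0.11). In the group labelled Btg4-/- it lost its MII and zygote calls against GV with a pseudocount of 0.1 (-0.79 and -0.78), without the filter and with only the libraries compared, and Dis3l2 lost its WT call at MII with only the libraries compared (adjusted p = 0.066). The cause of these changes was not tested.

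Values that turned their sign after median-ratio scaling were, for Zcchc6 in WT, 0.16 (MI against GV), 0.20 (MII against MI), 0.15 (zygote against MII), 0.36 (MII against GV) and 0.51 (zygote against GV), in Cnot6l-/- 0.11 (MII against MI), 0.23 (MII against GV) and 0.19 (zygote against GV), and in the group labelled Btg4-/- 0.061, 0.19 and 0.39 for the same 3. For Dis3l2 they were 0.59, 0.42 and 0.17 in WT for MI, MII and zygote against GV, 0.091 (zygote against MII) and 0.015 (zygote against GV) in Cnot6l-/-, and 0.0012 (MII against MI) in the group labelled Btg4-/-. Against WT, Zcchc6 turned to -0.25 (MI) and -0.35 (MII) in Cnot6l-/- and to -0.027 (MI), -0.17 (MII) and -0.11 (zygote) in the group labelled Btg4-/-, and Dis3l2 to -0.28 (MI) and -0.17 (zygote) and to -0.52, -0.35 and -0.33. Differences in the change from GV turned to -0.045, -0.14 and -0.32 for Zcchc6 and -0.27 (MI) and -0.16 (zygote) for Dis3l2 in Cnot6l-/-, and to -0.039, -0.18 and -0.12 for Zcchc6 and -0.62 (MI) for Dis3l2 in the group labelled Btg4-/-. Levels over MI, MII and zygote turned to -0.38 (Zcchc6), -0.006 (Zcchc11) and -0.32 (Dis3l2) in Cnot6l-/- and to -0.10 (Zcchc6) and -0.40 (Dis3l2) in the group labelled Btg4-/-. A pseudocount of 0.1 turned the Zcchc6 to Zcchc11 ratio in Cnot6l-/- to -0.031 and the Zcchc11 to Dis3l2 ratio in the group labelled Btg4-/- to 0.26. With no pseudocount, added after the values were seen, the Zcchc6 to Zcchc11 ratio of Cnot6l-/- turned to -0.39 and that of the group labelled Btg4-/- to -0.80, and the Zcchc11 to Dis3l2 ratios to 0.25 and 1.46.

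None of the values whose sign depended on a single library was called. With each library left out in turn, Dis3l2 ranged in WT from -0.40 to 0.16 (MI against GV), in Cnot6l-/- from -0.33 to 0.0091 (zygote against MII) and in the group labelled Btg4-/- from -0.33 to 0.16 (MI against GV). Zcchc6 ranged from -0.31 to 0.15 in WT and -0.18 to 0.20 in the group labelled Btg4-/- (zygote against MII), and from -0.031 to 0.095 in Cnot6l-/- (MI against GV). Against WT, Dis3l2 ranged from -0.35 to 0.21 (GV) and -0.0538 to 0.29 (zygote) in Cnot6l-/- and from -0.14 to 0.42 (GV), -0.0656 to 0.090 (MII) and -0.17 to 0.22 (zygote) in the group labelled Btg4-/-. Zcchc6 ranged from -0.039 to 0.17 (MII) and -0.37 to 0.087 (zygote) in Cnot6l-/- and from -0.17 to 0.24 (GV) in the group labelled Btg4-/-. Cnot6l-/- against the group labelled Btg4-/- gave -0.46 to 0.036 (GV), -0.0380 to 0.29 (MI) and -0.11 to 0.28 (zygote) for Dis3l2 and -0.28 to 0.026 (MII) for Zcchc6. Differences in the change from GV ranged in Cnot6l-/- from -0.28 to 0.28 (MII) and -0.095 to 0.47 (zygote) for Dis3l2 and -0.032 to 0.43 (zygote) for Zcchc6, and in the group labelled Btg4-/- from -0.25 to 0.31 (MI), -0.41 to 0.15 (MII) and -0.39 to 0.17 (zygote) for Dis3l2 and -0.044 to 0.37 (MII) for Zcchc6. In Cnot6l-/- the Zcchc6 level over 3 stages ranged from -0.0381 to 0.12, the Zcchc6 to Zcchc11 ratio from -0.052 to 0.10 and the Zcchc6 to Dis3l2 ratio from -0.19 to 0.042, and in the group labelled Btg4-/- the Zcchc11 to Dis3l2 ratio from -0.084 to 0.046.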
